A study of Mus musculus with 35 samples.

Results

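Slc20a1, Slc20a2 and Xpr1 are 3 genes of cellular phosphate transport, and they were followed here through 35 RNA libraries from mouse kidneys in which Flcn was deleted alone, with Tfeb or with Tfe3. They are 3 of the 31053 genes counted in every library, and they were found by symbol in the deposited table that gives symbols and by Ensembl identifier in the other files. Slc20a1 was chosen by its measured values: it is 1 of the 62 genes that passed the test in Flcn KO kidneys, and the study lists it as bound by TFEB in earlier chromatin data. Slc20a2 and Xpr1 were added for their function, as the other SLC20 importer and as the phosphate exporter. The Flcn KO values of Slc20a1, and each difference between crosses that uses them, are therefore given as a description with no test.

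The kidneys came from C57BL/6 mice of both sexes at postnatal day 2, before cysts are seen in this model, and the libraries hold 3′ reads of polyadenylated RNA. Flcn encodes folliculin, whose loss is known to bring the transcription factors TFEB and TFE3 into the nucleus, and the crosses ask which part of the Flcn KO change needs TFEB or TFE3. Flcn KO kidneys (Flcn flox/flox; Ksp-cre+, n = 5) were compared with control Flcn (n = 5), Flcn/Tfeb DKO kidneys (Flcn flox/flox and Tfeb flox/flox with Ksp-cre+, n = 4) with control Flcn/Tfeb (n = 3), and Flcn/Tfe3 DKO kidneys (Flcn flox/flox; Ksp-cre+; Tfe3-/-, n = 10) with control Flcn/Tfe3 (n = 8). The study describes its controls as Flcn flox/flox, so that the controls and the mutants share the floxed Flcn allele, and the Tfeb and Tfe3 alleles of the controls are not given in the sources used here. Ksp-cre is driven by the promoter of Cdh16 and is active in collecting ducts, distal tubules and the thick ascending limb, so that most other cells of these kidneys kept Flcn, whereas Tfe3-/- is a germline null allele that all cells carry. The Flcn/Tfe3 libraries came in separate count tables, called here set B (6 DKO, 3 control) and set C (4 DKO, 5 control), and the other crosses form set A. Levels are given as CPM, counts scaled to a common library size, on sizes corrected by trimmed mean of M-values (TMM) factors over all 35 libraries.

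Reads on genes numbered between 1652649 and 4239356 per library (median 2992169), and the share of mitochondrial reads lay between 1.79% and 11.9%. Flcn itself was read at 10.4 to 18.4 CPM in Flcn KO libraries against 11.8 to 16.5 CPM in their controls. Tfeb was read at 6.29 to 7.82 CPM in Flcn/Tfeb DKO against 6.94 to 19.8 CPM in controls. In set B, Tfe3 was read at 12.5 to 24.6 CPM in Flcn/Tfe3 DKO against 15.3 to 25.3 CPM in controls. In set C the DKO libraries had 15.9 to 19.1 CPM of Tfe3 and the controls 17.3 to 18.75 CPM. None of these genes passed the test in its own cross (edgeR, adjusted p = 0.93 for Flcn, 0.80 for Tfeb and 0.94 for Tfe3). The deleted exons are not given in the sources used here, and 3′ reads outside a deleted part check nothing, so the libraries are named by their labels. Of the marker lists for the tissue, 14 of 15 genes of the segments where Ksp-cre is active and 12 of 12 proximal tubule genes had at least 1 read in every library.

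SLC20A1 and SLC20A2, also called PiT-1 and PiT-2, are sodium-dependent importers of inorganic phosphate found in most cell types, where they are known for supplying the cell's own needs. XPR1 is the known exporter of phosphate from animal cells, and its SPX domain senses inositol pyrophosphates, signalling molecules that report the phosphate state of the cell. In the kidney the bulk of filtered phosphate is recovered by another family, the SLC34 importers of the proximal tubule, under the control of parathyroid hormone, FGF23 with its co-receptor Klotho, and vitamin D. TFEB and TFE3 are basic helix-loop-helix leucine zipper proteins that bind CACGTG and related letters.

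Slc20a1 (ENSMUSG00000027397) lies at chr2:129198764-129211616 on the plus strand of mm10, Slc20a2 (ENSMUSG00000037656) at chr8:22476788-22569612 on the plus strand, and Xpr1 (ENSMUSG00000026469) at chr1:155275701-155417415 on the minus strand. The longest coding transcripts have 11, 11 and 15 exons, respectively. The antisense transcripts Gm4430 and 9830144P21Rik overlap Slc20a1 and are not among the counted genes, and Smim19, on the minus strand, overlaps the first bases of Slc20a2 and had a median of 108 counts. The strand setting of the counting is not given in the sources used here, so reads of an antisense partner cannot be told apart from those of the gene.

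The bases before the start of Slc20a1 and of Xpr1 are shown because the letters bound by TFEB and TFE3 differ between them. Both were read from RefSeq promoter windows (GRCm38.p6, which has the coordinates of mm10), which run from 250 bases before to 50 bases after a start. The 250 bases before the start are printed 5′ to 3′ on the strand of the gene, for Slc20a1 from chr2:129198523-129198772 (plus strand) and for Xpr1 from chr1:155417445-155417694 (minus strand), with CACGTG, or GTCACGTG where it extends so far, in capitals.
Slc20a1: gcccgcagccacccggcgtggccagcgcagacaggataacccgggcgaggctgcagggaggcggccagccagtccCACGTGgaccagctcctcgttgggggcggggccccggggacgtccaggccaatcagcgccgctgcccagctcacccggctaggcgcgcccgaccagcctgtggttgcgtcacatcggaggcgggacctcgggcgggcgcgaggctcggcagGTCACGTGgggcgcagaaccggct
Xpr1: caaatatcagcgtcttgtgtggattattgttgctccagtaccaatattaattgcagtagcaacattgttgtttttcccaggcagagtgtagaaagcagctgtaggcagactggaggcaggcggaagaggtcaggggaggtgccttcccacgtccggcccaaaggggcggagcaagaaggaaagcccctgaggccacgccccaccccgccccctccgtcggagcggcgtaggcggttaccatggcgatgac

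The letters searched on both strands were CACGTG, its extension TCACGTG, the longer GTCACGTG that contains both, and the variant TCATGTG. The first window of Slc20a1 held CACGTG at 2 places, beginning at positions -175 and -22 relative to the start, and the nearer one was part of GTCACGTG. TCATGTG was not in this window. A second window of Slc20a1, at chr2:129206846-129207145, and the window of Xpr1 held none of the 4. Among all 32851 windows, 7.15% held CACGTG, 3.77% held TCACGTG, 2.25% held GTCACGTG, 3.77% held TCATGTG and 0.594% held CACGTG at 2 or more places. These matches describe letters and not binding, and no window of Slc20a2 was used here.

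In the Flcn cross, Slc20a1 was about 2-fold higher in Flcn KO kidneys than in controls, the value by which it was chosen. Its level was 119, 89.2, 85.4, 92.1 and 62.7 CPM in Flcn KO replicates 1 to 5. It was 61.7, 60.4, 40.4, 33.3 and 29.4 CPM in the 5 controls. On this scale Flcn KO replicate 5, the lowest of its group, and control replicate 1, the highest of its group, were close. On TMM factors from the 10 libraries of the cross alone these libraries changed places (63.0 and 63.2 CPM). The means were 89.7 ± 20.1 CPM (SD, n = 5) and 45.0 ± 15.2 CPM (SD, n = 5). The log2 fold change was 1.01 (standard error 0.21). Without any 1 library of the cross it stayed between 0.88 and 1.16. The 2 lowest controls, replicates 4 and 5, had 4.88% and 4.93% mitochondrial reads, against 9.98% to 11.1% in controls 1 to 3 and 7.33% to 11.1% in Flcn KO, and with this share as a covariate the log2 fold change was 0.96.

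**Figure D1:**
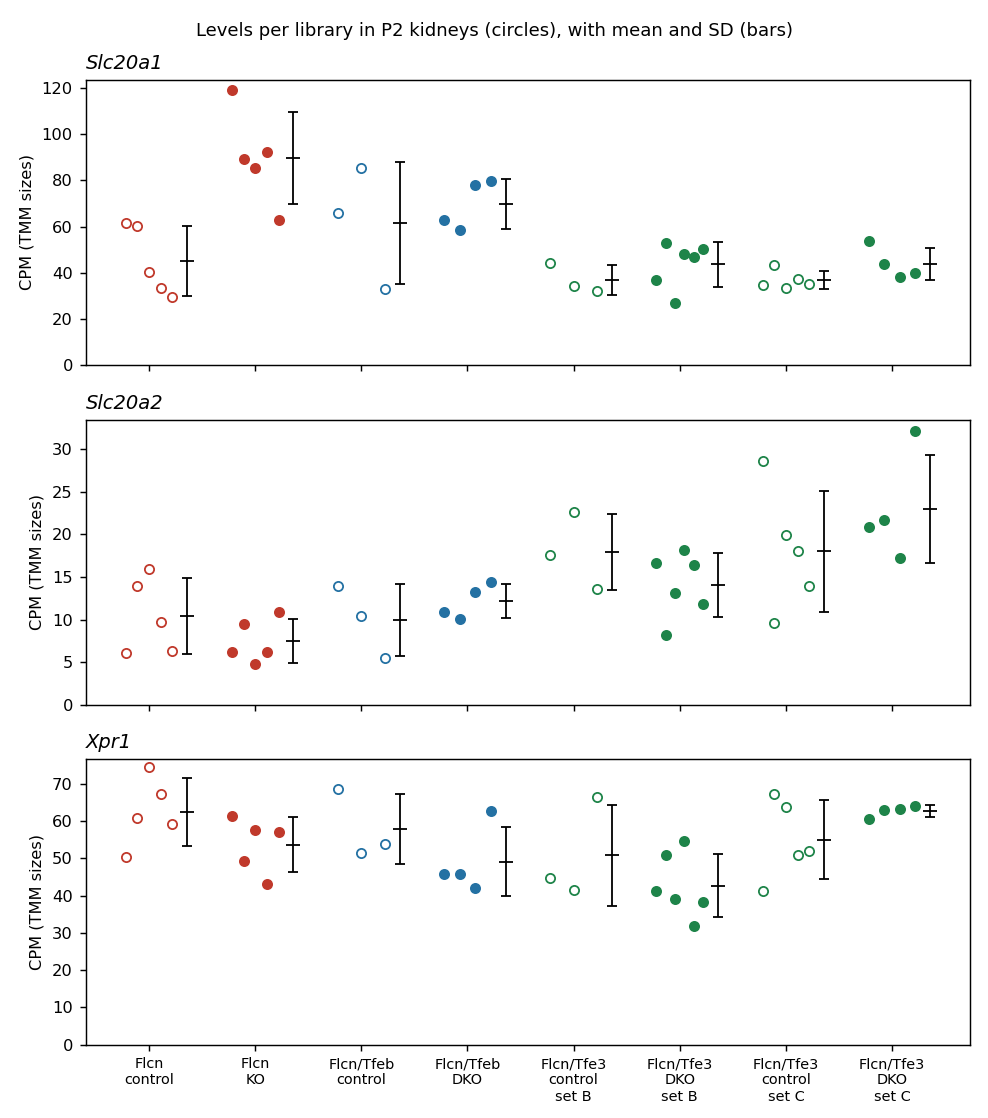
Levels of Slc20a1, Slc20a2 and Xpr1 in CPM (y axes, from 0) in each of the 35 libraries, by group and set (x axis). Open circles are controls, filled circles are mutants, and bars give the mean and SD. Slc20a1 in Flcn KO, whose values chose the gene, has the highest mean (89.7 CPM) of the 8 groups. The groups of each cross overlap for Slc20a2 and Xpr1.

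Slc20a2 did not pass the test in the same kidneys. The importer was at 6.24, 9.49, 4.81, 6.14 and 10.9 CPM in Flcn KO replicates 1 to 5, from 10 to 37 counts per library. The controls had 6.12, 14, 16, 9.75 and 6.30 CPM, so that 4 of the 5 Flcn KO libraries lay within the range of the controls and 1 lay below it. On the log2 scale the fold change was -0.39 (standard error 0.31, 95% interval -1.05 to 0.26, adjusted p = 0.73 from edgeR's quasi-likelihood test). Without any 1 library it ranged from -0.57, without Flcn KO replicate 5, to -0.21, without control replicate 3. A 2-fold decrease is inside this interval and a 2-fold increase is outside it.

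Xpr1 did not pass the test in the Flcn cross either. The exporter was at 61.4, 49.2, 57.7, 43.0 and 57.1 CPM in Flcn KO replicates 1 to 5. It was at 50.4, 60.9, 74.4, 67.3 and 59.1 CPM in the controls, and the groups overlap, with 2 Flcn KO libraries below the lowest control. The fitted log2 fold change was -0.20 (standard error 0.13, 95% interval -0.48 to 0.07, adjusted p = 0.66 from edgeR's test). In this cross 62 of 11932 genes were called at an adjusted p under 0.05, which is 0.52%, and the 2 tested members were not among them. Exact permutation of the 10 libraries (two-sided) gave p = 0.26 for Slc20a2 and p = 0.13 for Xpr1, where the smallest p possible is 0.0079.

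In the Flcn/Tfeb cross, none of the 3 genes passed the test. Slc20a1 was at 62.9, 58.5, 78.0 and 79.7 CPM in Flcn/Tfeb DKO replicates 1 to 4. The controls had 65.8, 85.6 and 33.1 CPM, a spread wide enough to hold each of the DKO libraries. Fitted over the 7 libraries, the log2 fold change was 0.21 (standard error 0.28, 95% interval -0.41 to 0.83, adjusted p = 0.85 from edgeR's test). It was -0.10 without control replicate 3, the lowest library, 0.54 without control replicate 2, the highest, and -0.41 with the share of mitochondrial reads as a covariate, which was 10.4% to 11.9% in the DKO libraries and 4.47% to 10.7% in the controls. The part of that share in the result was not tested further.

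Slc20a2 was at 10.9, 10.1, 13.3 and 14.4 CPM in the Flcn/Tfeb DKO libraries. The controls had 14, 10.4 and 5.52 CPM, and 1 DKO library lay above the highest of them. Its log2 fold change was 0.35 (standard error 0.35, 95% interval -0.42 to 1.13, adjusted p = 0.81 from edgeR's test), 0.02 without control replicate 3, 0.68 without control replicate 1 and -0.22 with the mitochondrial share as a covariate. Control replicate 3 was the lowest of the 3 controls for both SLC20 importers, and it had 4.47% mitochondrial reads and 9.07% of reads on no gene, against 9.16% and 10.7% mitochondrial and 17.8% and 19.9% on no gene in the other two.

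Xpr1 was at 45.7, 45.9, 42.0 and 62.6 CPM in the Flcn/Tfeb DKO libraries. The controls had 68.7, 51.5 and 53.8 CPM, so that 3 of 4 DKO libraries lay below each control and the fourth lay among them. The fitted log2 fold change was -0.23 (standard error 0.20, 95% interval -0.66 to 0.21, adjusted p = 0.81 from edgeR's test). It was -0.086 without control replicate 1 and -0.36 without DKO replicate 4. By edgeR's quasi-likelihood test 0 of 12469 genes were called in this cross, 0%, with 632 at an unadjusted p under 0.05, and DESeq2 and the likelihood ratio test also called 0. Exact permutation (two-sided) gave p = 0.63 for Slc20a1, 0.46 for Slc20a2 and 0.29 for Xpr1, and 3 against 4 libraries cannot go below 0.029.

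In the Flcn/Tfe3 cross, the DKO mean of Slc20a1 was above the control mean in both sets, and the gene did not pass the test. In set B it ranged from 27.0 to 53.1 CPM in the 6 DKO libraries (median 47.4), and the 3 controls had 44.2, 34.2 and 32.1 CPM. In set C it was at 53.6, 43.9, 38.2 and 39.7 CPM in the DKO libraries and at 34.6, 43.2, 33.3, 37.5 and 35.3 CPM in the 5 controls. In set B, 4 of 6 DKO libraries lay above the highest control and 1 lay below the lowest, and in set C 2 of 4 lay above. The log2 fold change, with the set as a term, was 0.25 (standard error 0.13, 95% interval -0.01 to 0.50, adjusted p = 0.72 and unadjusted p = 0.062 from edgeR's test). It was 0.24 in set B alone and 0.21 in set C alone.

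Slc20a2 ranged from 8.23 to 18.2 CPM in the DKO libraries of set B (median 14.7) against 17.6, 22.6 and 13.6 CPM in the controls, where 3 of 6 DKO libraries lay below the lowest control. In set C the DKO libraries had 20.8, 21.7, 17.3 and 32.1 CPM, and the 5 controls 28.6, 9.60, 19.9, 18 and 13.95 CPM. The DKO mean was below the control mean in set B and above it in set C, and the groups overlapped in both. Over both sets the log2 fold change was 0.00 (standard error 0.19, 95% interval -0.39 to 0.39, adjusted p = 0.998 from edgeR's test), with -0.34 in set B alone and 0.28 in set C alone.

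Xpr1 showed the same split between the sets. It ranged from 31.9 to 54.7 CPM in the DKO libraries of set B (median 40.1) against 44.7, 41.5 and 66.4 CPM in the controls. In set C it was at 60.4, 62.8, 63.2 and 64.2 CPM in the DKO libraries and at 41.1, 67.2, 63.8, 51.0 and 51.9 CPM in the 5 controls, so that the 4 DKO libraries lay close together inside the range of the controls. Over both sets the log2 fold change was -0.03 (standard error 0.13, 95% interval -0.29 to 0.24, adjusted p = 0.98 from edgeR's test), with -0.25 in set B alone and 0.15 in set C alone.

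The effect in set C less that in set B, a term added after the data were seen, was 0.01 for Slc20a1 (standard error 0.25, edgeR adjusted p = 0.98). It was 0.67 for Slc20a2 (standard error 0.38, edgeR adjusted p = 0.30) and 0.43 for Xpr1 (standard error 0.24, edgeR adjusted p = 0.30). With this term 162 of 12456 genes, 1.3%, were called. Over both sets 48 of 12456 genes were called (0.385%), in set B alone 8 of 13191 (0.0606%) and in set C alone 569 of 12169 (4.68%), and no member was among them in any of these fits. Exact permutation within the sets (two-sided) gave p = 0.079 for Slc20a1, 0.87 for Slc20a2 and 0.97 for Xpr1.

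**Figure D2:**
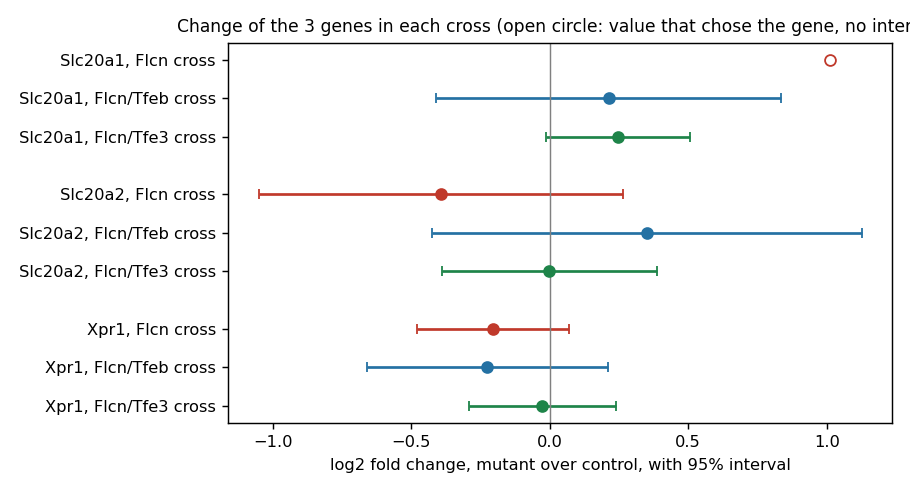
Log2 fold change of mutant over control (x axis) for each gene in each cross (y axis), with 95% intervals from edgeR's quasi-likelihood fit. The open circle is Slc20a1 in the Flcn cross, the value that chose the gene, drawn without an interval at 1.01. The other 8 intervals include 0.

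The crosses were then compared with one another, each through its own controls. The effect on Slc20a1 in Flcn/Tfeb DKO was 0.79 lower on the log2 scale than that in Flcn KO, a difference of -0.79 (standard error 0.37), and in Flcn/Tfe3 DKO the difference from Flcn KO was -0.76 (standard error 0.24). The Flcn/Tfeb difference was -0.46 without control Flcn/Tfeb replicate 2, -1.11 without replicate 3 and -1.15 with the mitochondrial share as a covariate, and without any 1 library the Flcn/Tfe3 difference stayed between -0.90 and -0.63. Both are descriptions, because Slc20a1 was chosen for the Flcn KO value that they subtract. The Flcn/Tfe3 and Flcn/Tfeb effects on Slc20a1 use no Flcn KO library, and their difference was 0.02 (standard error 0.28, 95% interval -0.55 to 0.59, adjusted p = 0.98 from edgeR's test). It was 0.59 with the mitochondrial share as a covariate. The interval holds differences of up to 1.51-fold, so it does not show that the Flcn/Tfeb and Flcn/Tfe3 effects are equal.

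For Slc20a2, the Flcn/Tfeb effect less the Flcn effect was 0.76 (standard error 0.49, 95% interval -0.26 to 1.79, adjusted p = 0.86 from edgeR's test). The Flcn/Tfe3 effect less the Flcn effect was 0.39 (95% interval -0.38 to 1.17, adjusted p = 0.80). The Flcn/Tfe3 effect less the Flcn/Tfeb effect was -0.38 (95% interval -1.24 to 0.48, adjusted p = 0.72). Without any 1 library the first difference ranged from 0.41 to 1.11 and the last from -0.72 to -0.02, the extremes being without control Flcn/Tfeb replicates 3 and 1, and the second ranged from 0.21, without control Flcn replicate 3, to 0.57, without Flcn KO replicate 5. The counts of the gene are low, from 10 per library, and changes above 2-fold between crosses lie inside each 95% interval.

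For Xpr1, the same 3 differences were -0.02 (95% interval -0.49 to 0.45, adjusted p = 0.99), 0.18 (95% interval -0.22 to 0.59, adjusted p = 0.83) and 0.18 (95% interval -0.32 to 0.69, adjusted p = 0.78 from edgeR's test). Without any 1 library the second ranged from 0.12, without control Flcn replicate 3, to 0.29, without control Flcn/Tfe3 replicate 3, and the third from 0.043, without control Flcn/Tfeb replicate 1, to 0.33, without Flcn/Tfeb DKO replicate 4. Here a 2-fold difference between crosses lies outside each interval. Of all genes tested, 2 of 13049 (0.0153%) differed between the Flcn/Tfeb and Flcn effects, and 3 of 13637 (0.022%) between the Flcn/Tfe3 and Flcn/Tfeb effects. Between the Flcn/Tfe3 and Flcn effects 0 of 13209 (0%) were called by edgeR's quasi-likelihood test, with 978 at an unadjusted p under 0.05, 1 called by DESeq2 and 2 by the likelihood ratio test. Over the 3 crosses and the 3 differences, 15 of the 18 values of the members were tested, and 0 were called by edgeR's quasi-likelihood test, DESeq2 or the likelihood ratio test, with 0 at an unadjusted p under 0.05 in the first.

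The relation of the 2 importers was read within each library as the log2 ratio of Slc20a1 counts to Slc20a2 counts, with 0.5 added to each, which does not depend on library size. Reads at the 3′ end were not scaled by length, so only changes of this ratio are compared. In Flcn KO it was 4.20, 3.21, 4.10, 3.84 and 2.51 in replicates 1 to 5, and in the controls 3.28, 2.09, 1.33, 1.76 and 2.20. Of the 5 Flcn KO libraries, 3 lay above each control, and the means differed by 1.44 against a within-group SD of 0.72, a value given with no test because Slc20a1 is part of it.

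In the Flcn/Tfeb cross the log2 ratio was nearly the same in the 4 DKO libraries, from 2.45 to 2.54, and was 2.21, 3.01 and 2.55 in the controls. The difference of the means was -0.09 (exact permutation test, two-sided, p = 0.63). In the Flcn/Tfe3 cross it ranged from 1.04 to 2.67 in the DKO libraries of set B and from 0.31 to 1.36 in those of set C, and the controls had 0.60 to 1.32 and 0.28 to 2.13. The difference within sets was 0.20 (exact permutation test, two-sided, p = 0.50), smaller than the within-group SD of 0.58, and it ranged from 0.056 without control replicate 2 to 0.35 without control replicate 5. The sets went opposite ways, with means of 1.64 in DKO against 1.05 in controls in set B and 0.95 against 1.11 in set C.

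**Figure D3:**
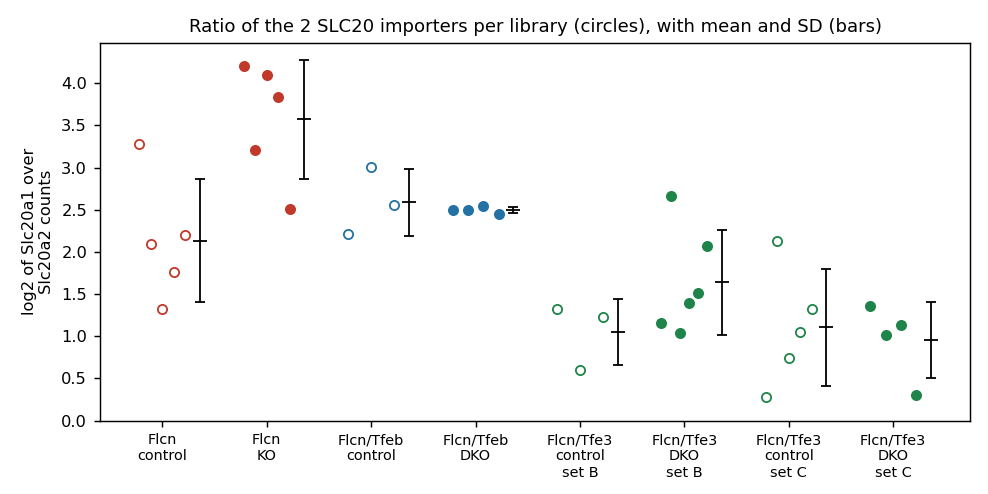
Log2 ratio of Slc20a1 to Slc20a2 counts (y axis, from 0) in each library by group and set (x axis), with means and SDs as bars. Flcn KO has the highest mean (3.57, against 2.13 in its controls), and 2 of its 5 libraries (3.21 and 2.51) lie below the highest control (3.28). The DKO groups overlap their controls.

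Across the 8 groups by set, the order of the Slc20a1 means was Flcn KO (89.7 CPM), Flcn/Tfeb DKO (69.8), control Flcn/Tfeb (61.5), control Flcn (45.0), Flcn/Tfe3 DKO in set C (43.9) and set B (43.7), and control Flcn/Tfe3 in set B (36.8) and set C (36.8). No neighbours in this order differed by more than the larger of their SDs. Slc20a2 ran from 22.9 CPM in Flcn/Tfe3 DKO of set C down to 7.51 CPM in Flcn KO, with the 4 groups of the Flcn/Tfe3 cross above the 4 groups of set A, and Xpr1 ran from 62.7 CPM in Flcn/Tfe3 DKO of set C to 42.7 CPM in Flcn/Tfe3 DKO of set B. For these 2 genes, too, each gap between neighbours was within the larger SD. Cross and set A against sets B and C cannot be told apart in such an order.

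The members did not move together from library to library. After each library was set against the mean of its own group and set, Pearson's r of log2 CPM was 0.06 between Slc20a1 and Slc20a2, 0.01 between Slc20a1 and Xpr1 and -0.05 between Slc20a2 and Xpr1 (35 libraries, a description in which each pair of values shares a library and its depth). The genes most like each member were then sought among 12273 genes by Pearson's r over the 35 libraries, after subtracting the control mean within each cross and set, so that genotype and library both enter.

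For Slc20a1 the 5 genes were Rnf128 (r = 0.83), Atp6ap1 (0.75), Tmem61 (0.73), Fabp3 (0.72) and Scnn1b (0.71). Rnf128 is a ubiquitin ligase, Atp6ap1 an accessory subunit of the vacuolar proton pump, Fabp3 a fatty acid binding protein and Scnn1b a subunit of the epithelial sodium channel. Within groups r was lower, from 0.44 for Tmem61 to 0.68 for Rnf128. In the order Flcn, Flcn/Tfeb and Flcn/Tfe3 cross, the log2 fold change of Rnf128 was 0.86, 0.12 and 0.17, that of Atp6ap1 0.46, 0.12 and 0.11, that of Fabp3 0.41, 0.34 and 0.16, and that of Scnn1b 0.58, 0.29 and 0.19. Tmem61, with a mean of 12.9 counts, had 2.43 in the Flcn cross and 0.91 in the Flcn/Tfe3 cross and was not tested in the Flcn/Tfeb cross. In the Flcn cross Tmem61 and Scnn1b were called (edgeR, adjusted p = 0.0091 and 0.049), beside 0.52% of all genes, and Rnf128, Atp6ap1 and Fabp3 were not (adjusted p = 0.051, 0.14 and 0.48). The Flcn KO rise that chose Slc20a1 enters r, which favours genes that also rose in Flcn KO. The Flcn cross values and calls of these 5 genes are therefore not a separate result. For Slc20a2 the 3 genes were Uhmk1 (r = 0.67), Pbld1 (0.67) and Ppp4c (0.63), and for Xpr1 Pdk2 (0.78), a kinase that inhibits pyruvate dehydrogenase, Kcnj15 (0.76), a potassium channel, and Aldh2 (0.76), the mitochondrial aldehyde dehydrogenase. These likenesses are descriptions over libraries and have no test.

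In bulk kidney a level can change because cells of a type are more numerous or because each holds more RNA, and these cannot be told apart. Beside the Slc20a1 difference in the Flcn cross, the summed level of the 15 markers of the segments where Ksp-cre is active was 2279 to 2884 CPM in Flcn KO and 1893 to 2472 CPM in controls, a log2 difference of 0.24. Of these markers 3 of 15 were called higher and 0 lower, beside 0.52% of all genes called: Umod, the uromodulin of the thick ascending limb (log2 fold change 1.001), Atp6v1g3, a proton pump subunit of intercalated cells (1.31), and Scnn1b (0.58), named after their values were seen. The list did not rise as a whole: 10 of the 15 were above 0, beside 48.5% of all genes, with a median of 0.18. Cdh16, whose promoter drives Ksp-cre, was at 0.05 (edgeR, adjusted p = 0.93). In the Flcn/Tfeb cross 0 of 15 were called (edgeR) and the summed level differed by -0.08, and in the Flcn/Tfe3 cross 1 of 14 tested was called, beside 0.385% of all genes, Umod again (0.71), with a difference of 0.10. The summed level of the 12 proximal tubule markers differed by -0.22, -0.12 and -0.12 in the 3 crosses, with 0 called in each. No marker of nephron progenitors, stroma, endothelium, myeloid cells or red blood cells was called in any cross. In the same order of crosses, their summed levels differed by -0.32, 0.06 and -0.05 for nephron progenitors, -0.17, -0.03 and 0.07 for stroma, 0.03, -0.22 and 0.13 for endothelium, -0.03, 0.22 and -0.03 for myeloid cells and 0.35, 0.17 and -0.61 for red blood cells. The nephron progenitor sum was 39.9 to 54.2 CPM in Flcn KO and 52.1 to 60.8 CPM in its controls. The sets of the Flcn/Tfe3 cross differed in these sums. The mean red blood cell sum was 4868 CPM in DKO against 4719 in controls in set B, and 1657 against 4133 in set C. The stroma means were 3579 against 3991 CPM in set B and 3619 against 3009 in set C, and those of nephron progenitors 114.7 against 141.3 and 104.3 against 93.3, so that both were lower in the DKO libraries of set B and higher in those of set C, as the means of Slc20a2 and Xpr1 were. The other lists did not split in this way: the myeloid means were 186.1 against 168.9 CPM in set B and 101.9 against 114.7 in set C, those of the Ksp-cre segments and of endothelium were higher in the DKO libraries of both sets, and those of proximal tubule were lower in both. The part of these lists in the members' values was not tested.

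The other genes of phosphate handling were taken as a list of 58, ordered by role, and all 58 were counted. In the Flcn cross 49 of them were tested and 0 were called by edgeR's quasi-likelihood test, DESeq2 or the likelihood ratio test, beside the 0.52% called among all genes. Without adjustment 1 was higher and 8 were lower at p under 0.05, beside 1082 of all 11932 genes, 19 of the 49 had a log2 fold change above 0, beside 48.5% of all genes, and the list's median was -0.04 against -0.01 over all genes tested. The extremes among genes with a mean of at least 10 counts were Ppip5k1, a kinase that makes inositol pyrophosphates (log2 fold change 0.72, adjusted p = 0.40), Stc2, a stanniocalcin (0.63, adjusted p = 0.59), and Enpp3, an ectonucleotide pyrophosphatase (0.51, adjusted p = 0.60). At the other end were Lhpp, a phosphatase (-0.93, adjusted p = 0.49), Vdr, the vitamin D receptor (-0.54, adjusted p = 0.37), and Pdgfrb, a receptor whose variants are known in familial brain calcification (-0.51, adjusted p = 0.31, each from edgeR's test). The tested SLC34 importers had log2 fold changes of -0.34 and -0.25, and the gene for KIDINS220, a known partner of XPR1, -0.04.

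In the Flcn/Tfeb cross 50 of the 58 genes were tested and 0 were called by any of the 3 tests, with 1 higher and 3 lower when p under 0.05 was left unadjusted, beside 632 of all 12469 genes, 15 of the 50 above 0, beside 47.9% of all genes, and a median of -0.11 against -0.02 over all genes. The highest were Cyp24a1, the enzyme that inactivates vitamin D (log2 fold change 1.05), Enpp3 (0.94) and Stc2 (0.46), and the lowest Vdr (-1.01), Fgfr4, an FGF receptor (-0.76), and Jam2, an adhesion molecule (-0.65), with adjusted p of 0.80 to 0.81 from edgeR's test. The 3 SLC34 importers ranged from -0.16 to 0.28.

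In the Flcn/Tfe3 cross 51 genes were tested and 0 were called by any of the 3 tests over both sets, with 5 higher and 4 lower when p under 0.05 was left unadjusted, beside 891 of all 12456 genes, 24 of the 51 above 0, beside 51.9% of all genes, and a median of -0.01 against 0.01 over all genes. The highest were Slc34a2, a phosphate importer (log2 fold change 0.54, adjusted p = 0.65), Pdgfrb (0.33, adjusted p = 0.56) and Kl, the Klotho co-receptor (0.28, adjusted p = 0.56 from edgeR's test). Slc34a2 had a mean of 21 counts. Slc34a1, the other tested SLC34 importer, had a mean of 1942 counts and was at -0.15 (adjusted p = 0.79 from edgeR's test). The lowest were Nudt10, which removes phosphates from inositol pyrophosphates (-0.62, adjusted p = 0.66), Ippk, an inositol phosphate kinase (-0.45, adjusted p = 0.61), and Lhpp (-0.44, adjusted p = 0.74 from edgeR's test). In set C alone 1 gene of the list was called, Sgk1, a kinase that regulates sodium and phosphate transport (-0.68, adjusted p = 0.016 from edgeR's test), where 4.68% of all genes tested were called.

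**Figure D4:**
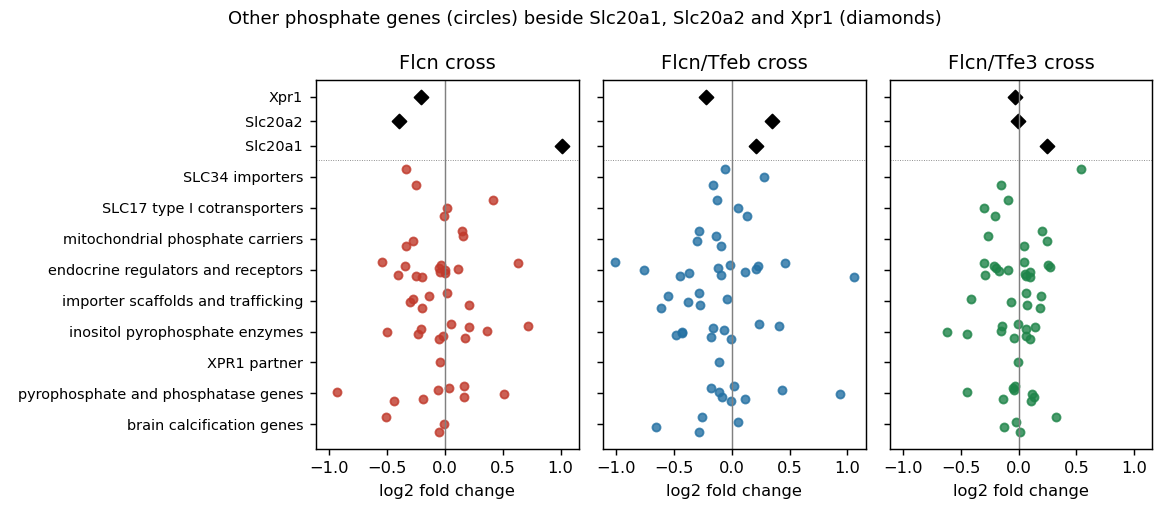
Log2 fold change (x axes) of the tested genes of the phosphate list in the 3 crosses, 1 circle per gene, in rows by role, with Slc20a1, Slc20a2 and Xpr1 as diamonds above the dotted line. In the Flcn cross the diamond of Slc20a1 is at 1.01, the value that chose the gene, so its place beside the 49 circles is no test. The highest of these circles is at 0.72. In the other crosses the diamonds of Slc20a1 (0.21 and 0.25) lie among the circles.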

How the data were processed

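RNA of 35 kidneys was made into QuantSeq 3′ mRNA libraries and sequenced in single 100-base reads. The authors used BBDuk for trimming, STAR for alignment to mm10 and HTSeq-count for gene counts, and the submitters' processing notes name Trim Galore and STAR. The deposited values are raw counts, with no normalization, and 1 deposited percent column held no value and was not used. In 26 libraries the tally of uncounted reads held 33.7% to 49.4% aligned to several places and 7.92% to 19.9% on no gene, and such lines were left out. All measurement columns were mapped to samples.

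Each cross was fitted with edgeR 4.0.16 in R 4.3.3: filterByExpr on the groups, TMM factors, quasi-likelihood F test, a term for the set in the Flcn/Tfe3 cross, and Benjamini-Hochberg adjustment over all genes tested, with 0.05 as the threshold. Differences between crosses were fitted on both crosses together, and their fold changes are differences of log2 values. Standard errors are the log2 fold change over the root of F. Permutations of single genes and correlations used log2 CPM with a prior count of 2. The labels call the libraries biological replicates, and no 2 libraries of a group agreed within sampling noise (63 pairs, chi-square per degree of freedom 2.71 to 39.1). Intervals cover the spread between libraries, and 3 counts correspond to 0.708 to 1.82 CPM. Same-numbered libraries were not treated as pairs: the correlation of their deviations was over 0.1 in 3 of 13 pairs.

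The members, the lists of 58 phosphate genes and 59 cell type markers and the tests were chosen with earlier results of these data known. Genes were named by rule: the members, the targeted genes, the 3 highest and 3 lowest phosphate genes of a cross, each called one, and the 5 or 3 most alike. Of the phosphate genes 2 were matched by RefSeq synonyms. The fitting code was tested on simulated data. Other settings tried were RLE factors, library totals, other filters, covariates, the replicate block, single sets, each library left out, DESeq2 1.42.0 and edgeR's likelihood ratio test. Coordinates are from GENCODE M21. The authors' own comparisons were not used.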

Additional observations from a re-analysis of the deposited data

How the results depend on the processing

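Of 602 values computed under other settings, 560 kept their direction and their side of the threshold or, for values with no test, moved by less than the spread between libraries, and 0 of 404 tests of the members fell under the threshold (lowest adjusted p 0.26 over DESeq2, edgeR's likelihood ratio test and the edgeR alternatives). The log2 fold change of Slc20a1 in the Flcn cross was 0.96 with library totals only and 1.03 with the replicate block. Some values changed sign, and the cause was not tested. With the mitochondrial share as a covariate, the Flcn/Tfeb values of Slc20a1 and Slc20a2 went from 0.21 and 0.35 to -0.41 and -0.22. In the Flcn/Tfe3 cross Slc20a2 was 0.077 with library totals only, 0.014 with no filter, 0.14 with Xist as a covariate and 0.28 in set C alone, and Xpr1 was 0.058 with library totals only and 0.15 in set C alone. In set B alone the Xpr1 effect in the Flcn/Tfe3 cross less that in the Flcn cross was -0.044, and less that in the Flcn/Tfeb cross -0.041. For Slc20a1 the Flcn/Tfe3 effect less the Flcn/Tfeb effect was -0.046 with Xist as a covariate, -0.0024 in set C alone and 0.59 with the mitochondrial share as a covariate. The count of called phosphate genes moved from 0 to 1 in set C alone, where 569 of 12169 genes were called, against 48 of 12456 over both sets, and the cause was not tested.

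Without each library in turn, Slc20a1 ranged from -0.10 to 0.54 in the Flcn/Tfeb cross, the extremes without control replicates 3 and 2, and from 0.19 to 0.31 in the Flcn/Tfe3 cross. Slc20a2 ranged from -0.13 to 0.12 and Xpr1 from -0.088 to 0.091 in the Flcn/Tfe3 cross. The Flcn/Tfeb less Flcn effect of Xpr1 ranged from -0.16 to 0.13, the Flcn/Tfe3 less Flcn/Tfeb effect of Slc20a1 from -0.32 to 0.35, and the log2 ratio of Slc20a1 to Slc20a2 in the Flcn/Tfeb cross from -0.28 to 0.12. The replicate block, run within each cross, changed no call among the tested values of the members. The Flcn cross value of Slc20a1 was not tested with it. Called genes went from 62 to 48 in the Flcn cross and from 48 to 0 in the Flcn/Tfe3 cross. In the latter only 3 pairs of set B and 2 of set C share a number, and unmatched libraries add nothing to the block's effect. Its count is therefore from fewer libraries than the main fit. Of 13 libraries, 2 correlated best with the library of their own number. DESeq2 called 113 genes in the Flcn cross and 96 in the Flcn/Tfe3 cross, and the likelihood ratio test 132 and 88. The lowest count of a member was 10, for Slc20a2, so that its changes are the least precise.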
